A study of Ovis aries with 10 samples.

Results

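The custom ovine microRNA (miRNA) array carried 207 probes, of which 152 detect sheep miRNAs and 55 are controls. Among the controls, 12 probes have a name containing -5S- and are directed at 5S ribosomal RNA (rRNA). They form 6 positions, named b1 to b6, each with 1 bovine probe (bta) and 1 human probe (hsa). All 12 were chosen by their name, and none was left out. Each was measured on 10 arrays, 1 for the fibrotic and 1 for the normal caudal segment of the lung, from 5 female sheep numbered 2, 3, 6, 7 and 10 and aged 9 months. In this model, bleomycin was given to 1 caudal segment of the lung and saline to the other, and tissue was taken after 4 weeks. The study picked these 5 animals for the most severe fibrosis, so milder injury is not represented, and every normal segment came from an animal that also received bleomycin. The sample labels give the left segment as fibrotic in sheep 2 and 3 and the right one in sheep 6, 7 and 10, whereas the methods place bleomycin on the left in every animal. The labels were followed here. The 3 miRNAs miR-200a, miR-200b and miR-200c, which mark epithelium, were present on every array, with a mean log2 signal between 9.61 and 11.09. The labels number the arrays 1 to 10 in the order of the animals, so a difference between animals and a difference along that order cannot be told apart.

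5S rRNA is the smallest RNA of the large ribosomal subunit. It is transcribed by RNA polymerase III with the help of the factor TFIIIA, and it enters the ribosome together with the proteins RPL5 and RPL11. Because it is abundant in every cell and is retained in total RNA preparations, probes for it serve as controls on small RNA arrays. Which stretch of the molecule each of the positions b1 to b6 covers, and what the bovine and human probe sequences are, was not analysed here. The sequences therefore cannot be shown, and the signals of different probes are signals and not amounts of RNA.

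The range of the signal differed by probe position. At b1, the bovine probe ranged from 502 to 1272 intensity units over the 10 arrays, and the human probe ranged from 237 to 702. At b2 the ranges were 1574 to 11589 for the bovine and 3529 to 14213 for the human probe. These positions were of moderate signal and, for b1, of narrow range. At b3 the bovine probe ranged from 1931 to 11749 and the human probe from 620 to 14072. The b4 probes were the dimmest, with 20.7 to 264 for the bovine and 31.3 to 354 for the human probe. The b5 probes ranged from 6402 to 82392 (bovine) and from 3462 to 59368 (human). At b6 the range was widest, with 6717 to 200194 for the bovine and 6028 to 198047 for the human probe, and 200194 was the highest intensity in the whole table. No 5S value was below 1, the floor set before the log2 step, and all 12 probes averaged at least 5 on the log2 scale, a level reached by 59 of the 152 miRNAs. Together the b5 and b6 probes supplied between 67.7% and 94.1% of the summed 5S signal of an array.

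The ratio of the highest to the lowest array was 29.8 for bta-5S-b6 and 32.9 for hsa-5S-b6, but only 2.53 for bta-5S-b1 and 2.96 for hsa-5S-b1. Among the 98 probes whose log2 signal averaged at least 5, hsa-5S-b6 had the largest and bta-5S-b6 the second largest standard deviation over the arrays, 1.75 and 1.74 on the log2 scale. The b1 probes ranked 64 and 68 of 98 in this order. The median standard deviation was 1.12 for the 12 5S probes, 0.41 for the 59 miRNAs and 0.84 for the 27 other control probes in the same class. The 5S probes thus had a larger spread than the median miRNA, except that the b1 pair was close to it, with 0.42 and 0.41.

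At b6 the variation was largely between animals, or along the array order, which cannot be told apart from them. In normal segments, bta-5S-b6 had intensities of 11594, 6717, 200194, 15696 and 110171 for sheep 2, 3, 6, 7 and 10. In fibrotic segments of the same sheep, in the same order, it had 15022, 11919, 138663, 15785 and 44864. Both segments of sheep 6 and of sheep 10 were above every array of the other sheep. The human probe of this position, hsa-5S-b6, had 11558, 6028, 198047, 16902 and 112492 in normal segments and 14844, 13244, 141443, 15591 and 46284 in fibrotic segments of sheep 2, 3, 6, 7 and 10.

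At b5 the pattern was alike. The bovine probe bta-5S-b5 had 11166, 6402, 77159, 10536 and 45074 in the normal segments of sheep 2, 3, 6, 7 and 10, and 16546, 10414, 82392, 12689 and 27835 in the fibrotic segments. For hsa-5S-b5 the values were 6850, 3462, 52173, 7095 and 33277 in normal and 10249, 6436, 59368, 8965 and 25216 in fibrotic segments. Sheep 6 and 10 were again highest in both segments, with no overlap. The human b3 probe belonged to the same group, with 1008, 620, 14072, 1056 and 4677 in normal and 1789, 850, 6801, 1156 and 3918 in fibrotic segments.

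In 7 of the 12 5S probes, namely both b4, both b5 and both b6 probes and hsa-5S-b3, all 4 arrays of sheep 6 and 10 lay above all 6 arrays of sheep 2, 3 and 7. The same was seen in 13 of all 207 probes (6.28%) and in 3 of the 152 miRNAs. At b4 the separation was narrow. For bta-5S-b4 the lowest array of sheep 6 and 10 had 74.2 and the highest of the other sheep 70.3, and for hsa-5S-b4 these were 119 and 100. Within an animal bta-5S-b4 went from 219 (normal) to 74.2 (fibrotic) in sheep 6 and from 112 to 264 in sheep 10. Sheep 6 and 10 were singled out after the 5S values had been seen, so these counts are a description. With only the normal segments, sheep 6 and 10 were the highest animals in 10 of the 12 probes, and with only the fibrotic segments in 7. This order was counted for the 5S probes only. No share over all probes stands beside it, so it is not shown to be particular to them.

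The differences between sheep were tested with the sheep terms of limma over all 207 probes. After Benjamini-Hochberg adjustment, 0 of the 12 5S probes passed an adjusted p under 0.05, and neither did any other probe of the array (0%). The 5 probes bta-5S-b5, bta-5S-b6, hsa-5S-b3, hsa-5S-b5 and hsa-5S-b6 had the smallest adjusted p of the 5S set, 0.0666 each by this moderated F test. At an unadjusted p under 0.05, 8 of the 12 5S probes passed, against 28% of all probes and 36 of the 152 miRNAs. The unadjusted p was 0.000352 for hsa-5S-b5 and 0.00161 for hsa-5S-b6 in limma. The call depended on the setting. With each array centred on its median log2 miRNA signal, 5 of the 12 passed the adjusted threshold (2.90% of all probes), and with log2(value + 32) 4 passed (3.38% of all probes). With tests limited to the 98 brighter probes, 5 passed (10.2% of those probes). Without sheep 7 the count was 6 (19.3% of all probes), and without sheep 10 it was 3 (1.45% of all probes). It stayed at 0 with arrays centred on the other control probes, after quantile normalization and without sheep 2, 3 or 6. The intraclass correlation estimates the share of log2 variance between sheep, without a term for condition. As an estimate it can fall below 0. It was 0.93 for bta-5S-b5, 0.94 for hsa-5S-b5, 0.92 for bta-5S-b6, 0.90 for hsa-5S-b6 and 0.92 for hsa-5S-b3. For bta-5S-b4 it was 0.44 and for hsa-5S-b4 0.64.

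The b1 probes did not share this order of the animals. The normal segments gave 601, 502, 694, 595 and 552 intensity units for bta-5S-b1 in sheep 2, 3, 6, 7 and 10, and the fibrotic segments gave 1272, 554, 539, 883 and 504. The fibrotic segment of sheep 2 was the highest array, and sheep 6 and 10 lay within the range of the others. For hsa-5S-b1 the normal segments gave 321, 395, 415, 395 and 302, and the fibrotic segments gave 702, 354, 237, 343 and 304. The intraclass correlation was 0.085 for bta-5S-b1 and -0.20 for hsa-5S-b1. On the log2 scale the difference between the b6 and the b1 probe of the bovine set was 4.27, 3.74, 8.17, 4.72 and 7.64 in the normal segments of sheep 2, 3, 6, 7 and 10, so that probes for the same RNA changed by different factors between animals.

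The b2 probes were intermediate. For bta-5S-b2 the normal segments had 3160, 2066, 11589, 1574 and 3704, and the fibrotic segments had 6318, 1675, 8008, 3721 and 3091. The highest arrays were those of sheep 6, whereas sheep 10 overlapped with sheep 2 and 7. For hsa-5S-b2 the values were 5703, 4070, 14213, 3529 and 5857 in normal and 11687, 3564, 10876, 8043 and 3784 in fibrotic segments, where sheep 2 exceeded sheep 6. The bovine b3 probe had 1931, 3030, 11749, 2959 and 3408 in normal and 3258, 2968, 8111, 7227 and 3392 in fibrotic segments.

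The bovine and the human probe of a position were compared within each array. At b6 they gave almost the same signal, with a bovine to human ratio between 0.900 and 1.11 and a correlation of 0.999 over the 10 arrays. At b5 the bovine probe was higher on all 10 arrays, with a ratio from 1.10 to 1.85 and a correlation of 0.993. At b1 it was also higher on all 10 arrays, with a ratio from 1.27 to 2.57. At b2 the human probe was higher on all 10 arrays, and the ratio lay between 0.446 and 0.817. The b1, b2 and b5 positions kept the direction of the difference between species on every array, whereas at b6 the bovine probe was higher on 5 of 10. At b3 the ratio did not keep its direction. For sheep 2, 3, 6, 7 and 10 it was 1.92, 4.89, 0.835, 2.80 and 0.729 in the normal segment, and 1.82, 3.49, 1.19, 6.25 and 0.866 in the fibrotic one. The bovine b3 probe thus exceeded the human one in sheep 2, 3 and 7, whereas in sheep 6 and 10 it was the lower one on 3 of 4 arrays. The log2 ratio at b3 had a standard deviation of 1.10 over the arrays, against 0.083 at b6. At b4, where signals were dim, the ratio ranged from 0.420 to 1.87. Correlations between probes over the 10 arrays, which come from 5 animals, are given as a description. The 10 pairs among b5, b6 and human b3 had r between 0.970 and 0.999, and between 0.740 and 0.987 over the 6 arrays of sheep 2, 3 and 7. The b1 probes had r between -0.38 and -0.035 with these 5 probes over the 10 arrays, but r was above 0 for all 10 such pairs over the 6 arrays of sheep 2, 3 and 7 (0.149 to 0.919) and for deviations within sheep (0.172 to 0.826).

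The study asked which RNAs differ between bleomycin-injured and control segments. For 5S rRNA, the summed signal of the 12 probes in normal segments was 54005, 33415, 580864, 60426 and 319756 for sheep 2, 3, 6, 7 and 10. The fibrotic segments gave sums of 81857, 52089, 456632, 74474 and 159810 for these animals. The fibrotic to normal ratio was thus 1.52, 1.56, 0.786, 1.23 and 0.500. The sum was higher in the fibrotic segment of 3 sheep and lower in the other two, sheep 6 and 10, and the mean log2 ratio was 0.039 ± 0.70 (SD, n = 5). In sheep 2 all 12 probes were higher in the fibrotic segment, with log2 differences from 0.36 to 1.13. The number of probes with a higher signal after bleomycin was 7 in sheep 3, 9 in sheep 7, but only 2 in sheep 6 and 3 in sheep 10. As these are bulk tissue samples, fewer cells of a type and less RNA per cell cannot be told apart.

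With sheep as a block, limma with Benjamini-Hochberg adjustment over all 207 probes called 0 of the 12 5S probes changed in fibrotic segments (adjusted p under 0.05), against 0% of all probes. The smallest adjusted p among the 12 was 0.597. At an unadjusted p under 0.05 the count was 0 of 12, against 10.1% of all probes, and the test named in the methods, here run in paired form over the 5 sheep, also gave 0 of 12 at that threshold and so at the stricter one of the study, which tested every sheep on its own. None of the 12 probes moved one way in every one of the 5 sheep, against 12.1% of all probes. The median log2 fold change was 0.20 over the 5S probes, with 8 above and 4 below 0, and -0.067 over all probes.

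The estimate with the smallest standard error was that of hsa-5S-b5, whose log2 fold change of fibrotic over normal was 0.32 with a 95% confidence interval from -0.23 to 0.87. Its mean log2 signal was 13.60 ± 1.67 (SD, n = 5) for normal and 13.92 ± 1.31 (SD, n = 5) for fibrotic segments, and the fibrotic segment was higher in 4 of 5 sheep. For bta-5S-b6 the interval ran from -0.95 to 0.70 around -0.12, and for hsa-5S-b6 from -0.98 to 0.82 around -0.077. The bovine b6 probe had mean log2 signals of 14.90 ± 2.15 (SD, n = 5) for normal and 14.78 ± 1.48 (SD, n = 5) for fibrotic segments. Each of these intervals includes changes of more than 1.5-fold in at least 1 direction, so the data do not show that 5S signals were equal in both segments. The other log2 fold changes were 0.26 for bta-5S-b1, 0.23 for bta-5S-b2, 0.29 for bta-5S-b3, 0.19 for bta-5S-b5, 0.20 for hsa-5S-b2, 0.28 for hsa-5S-b4, 0.022 for hsa-5S-b3, -0.0055 for hsa-5S-b1 and -0.35 for bta-5S-b4. Without sheep 6 and 10, whose 5S signals stand apart, the median log2 fold change of the 5S probes was 0.50. The count of called probes was again 0 of 12. This setting was added after the 5S values had been seen. It leaves out the only sheep with a lower 5S sum in the fibrotic segment (ratios of 0.786 and 0.500), so a higher median was built into it.

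Some groups of the other control probes moved with the mean 5S signal. The mean log2 signal of the 3 probes named PUC2PM-20B, whose role is not given in the sources used here, was 13.62, 13.06, 15.96, 13.14 and 15.24 in the normal segments of sheep 2, 3, 6, 7 and 10, and 14.44, 12.76, 15.11, 14.50 and 14.59 in the fibrotic segments. Sheep 6 and 10 were highest here too. Over the 10 arrays the mean log2 5S signal had a Pearson r of 0.94 and a Spearman rho of 0.96 with the mean of these 3 probes, and r was 0.84 over the 6 arrays of sheep 2, 3 and 7. With the 11 control probes whose names end in 3P, r was 0.86. With the 22 probes with 3M in their names r was 0.49, and it was -0.052 over the 6 arrays of sheep 2, 3 and 7. By 5S probe, r with the PUC2PM-20B mean over the 10 arrays was 0.21 for bta-5S-b1 and -0.13 for hsa-5S-b1. For the remaining probes it lay between 0.51 (bta-5S-b4) and 0.92 (hsa-5S-b3).

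Relative to the PUC2PM-20B probes the order of the animals changed with the position. The log2 signal of bta-5S-b6 minus that of these probes was -0.12, -0.34, 1.65, 0.79 and 1.51 in the normal segments of sheep 2, 3, 6, 7 and 10, and -0.57, 0.78, 1.97, -0.55 and 0.86 in the fibrotic segments. Sheep 6 and 10 were still above the other animals on every array, but the gap between the fibrotic segment of sheep 10 and the normal segment of sheep 7 was small. For bta-5S-b5 this difference was -0.17, -0.41, 0.28, 0.22 and 0.22 in normal and -0.43, 0.58, 1.22, -0.87 and 0.18 in fibrotic segments, with overlap between the animals. For bta-5S-b1 it was -4.39, -4.08, -6.52, -3.93 and -6.14 in normal and -4.13, -3.65, -6.03, -4.71 and -5.61 in fibrotic segments, so that sheep 6 and 10 were the lowest. What part the shared movement with these control probes has in the 5S differences was not tested.

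The summed miRNA signal of an array lay between 138979 and 146225, a 1.05-fold range, whereas the summed 5S signal had a 17.4-fold range. Relative to the miRNA sum, the 5S sum was 38.8%, 23.7%, 397%, 42.5% and 222% in the normal segments of sheep 2, 3, 6, 7 and 10, and 57.0%, 36.7%, 321%, 52.1% and 115% in the fibrotic segments. The mean log2 5S signal had a Pearson r of 0.55 and a Spearman rho of 0.58 with the log2 miRNA sum over the 10 arrays. Single 5S probes had r with the miRNA sum between 0.11 for bta-5S-b4 and 0.67 for hsa-5S-b2. These values describe a sum that hardly varied, and they rest on few arrays, since r was 0.19 without sheep 6. After quantile normalization r was -0.91, and with arrays centred on the other control probes it was -0.43. It was 0.74 with miRNA median centring and 0.53 with PUC2PM-20B centring, so the direction differed between scalings. Centring subtracts the same offset per array from the 5S mean and from the log2 miRNA sum, which hardly varied before. The r values after centring are therefore partly set by that offset, and no conclusion about 5S and miRNA is drawn from them. Quantile normalization over all probes gives every array the same set of values. Higher 5S values then leave lower ones for other probes, so a negative r is largely built in.

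Single miRNAs had stronger correlations with the 5S signal than their sum, in both directions. The sum hardly varied between arrays. Where a sum is nearly fixed, a rise in some miRNAs is offset by a fall in others, so r in both directions is partly built in. Of the 59 miRNAs whose log2 signal averaged at least 5, 13 had r above 0.7 with the mean log2 5S signal over the 10 arrays and 16 had r below -0.7, with a median of 0.047. Over the 6 arrays of sheep 2, 3 and 7 the counts were 16 and 17, and over the differences between the segments of the 5 sheep they were 11 and 12. The sign of r was the same over all 10 arrays and over those 6 arrays in 46 of the 59, although these sets share arrays. By probe, hsa-5S-b1 reached neither limit with any of the 59 miRNAs and bta-5S-b1 exceeded 0.7 with 3, whereas bta-5S-b5 had 13 miRNAs above 0.7 and 13 below -0.7.

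The 5 miRNAs with the highest r were miR-22-3p, miR-106b, miR-127, miR-432 and miR-19b. MiR-22-3p had an intensity of 1189, 836, 2567, 1066 and 2230 in the normal segments of sheep 2, 3, 6, 7 and 10, and of 1201, 1061, 2593, 1190 and 1876 in the fibrotic segments. It was highest in sheep 6 and 10, like the b5 and b6 probes, with an r of 0.957. MiR-106b and miR-19b, which belong to the miR-17-92 cluster and its paralogs, had r of 0.942 and 0.856, with intensities from 433 to 1047 and from 403 to 1135. MiR-127 and miR-432, both from the imprinted DLK1-DIO3 region, had r of 0.910 and 0.888. Their intensities ranged from 131 to 796 and from 15.6 to 97.4.

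The 5 miRNAs with the lowest r were miR-30c, miR-30d, miR-125b, miR-374b and miR-30b. Of these, 3 are members of the miR-30 family. The family's probe miR-30a-3p had an r of -0.60, in the same direction, whereas miR-30a-5p had 0.39. For miR-30a-5p, r was -0.0070 over the 6 arrays of sheep 2, 3 and 7 and -0.66 over the 5 differences between segments. Its opposite direction was thus seen over the 10 arrays and not in these sets. MiR-30c had 3562, 4371, 1470, 3665 and 2211 in the normal segments of sheep 2, 3, 6, 7 and 10, and 2429, 3721, 1554, 2547 and 2568 in the fibrotic segments. Its lowest arrays were both of sheep 6, and its r was -0.958. MiR-30d and miR-30b had r of -0.946 and -0.891, miR-125b had -0.937 and miR-374b had -0.936. The intensity of miR-374b ranged from 39.0 to 572. For all 10 named miRNAs r had the same sign over the 6 arrays of sheep 2, 3 and 7, where it was 0.758 for miR-22-3p and -0.944 for miR-30c, and over the 5 differences between segments. Both sets share arrays with the 10 that chose these miRNAs.

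Of the marker lists, the 3 epithelial miRNAs (miR-200a, miR-200b and miR-200c) all had r above 0 with the mean 5S signal, with a median of 0.32 and an r of 0.57 for their mean level, and this mean log2 level was 9.61 to 10.40 in normal and 10.12 to 11.09 in fibrotic segments. The 5 mesenchymal miRNAs (miR-143, miR-133, miR-199a-3p, miR-21 and miR-218a) had a median r of 0.26, with 3 above and 2 below 0, and an r of 0.56 for their mean level. Their mean log2 level was 9.40 to 10.00 in normal and 9.71 to 10.02 in fibrotic segments. Of 10 blood cell miRNAs, 4 matched a probe by name (miR-150, miR-16b, miR-181a and miR-191), with a median r of 0.019, while their mean level had an r of -0.63. Only miR-150 had an r far from 0, at -0.82, against -0.089 for miR-16b, 0.13 for miR-181a and 0.15 for miR-191. They had a mean log2 level of 11.16 to 11.64 in normal and 10.70 to 11.53 in fibrotic segments. The part of these cell types in the 5S signal was not tested.

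Since 5S rRNA is often used as a loading reference, the miRNAs that the study examined by PCR were also expressed relative to the mean log2 5S signal of the same array. For miR-21, which promotes fibrosis, the log2 difference of fibrotic over normal was 0.73 ± 0.59 (SD, n = 5) on the deposited values and 0.62 ± 0.17 (SD, n = 5) relative to 5S. Relative to 5S it was 0.83, 0.42, 0.70, 0.68 and 0.49 for sheep 2, 3, 6, 7 and 10, and all 5 sheep had higher values either way. The differences of miR-21 followed those of the mean 5S signal over the 5 sheep, with an r of 0.96. Subtracting the 5S signal therefore narrows the spread of miR-21, which does not show that 5S is a suitable reference. For the other miRNAs the spread became wider and the direction was shared by fewer sheep. MiR-30a-5p was at -0.25 ± 0.22 (SD, n = 5) on the deposited values, lower in all 5 sheep, and at -0.35 ± 0.69 (SD, n = 5) relative to 5S, higher in 1 sheep. MiR-26a was at -0.22 ± 0.12 (SD, n = 5) and at -0.33 ± 0.43 (SD, n = 5) relative to 5S, where it was higher in 1 sheep. MiR-29a, a repressor of collagen genes, was at -0.19 ± 0.15 (SD, n = 5) and at -0.29 ± 0.48 (SD, n = 5) relative to 5S, where it was higher in 2 sheep. The PCR reference miR-103 was at 0.091 ± 0.16 (SD, n = 5) and at -0.012 ± 0.45 (SD, n = 5). With every array centred on the 5S probes, limma called 0 of the 207 probes at an adjusted p under 0.05, and 18 had an unadjusted p under 0.05.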

How the data were processed

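Small RNA from both caudal segments of 5 sheep was hybridized with 1 dye (Cy3) on 10 arrays. The deposited table holds, for every probe on every array, 1 intensity that the authors corrected for background and averaged over replicate spots. The methods describe a log2 transformation, but these intensities are linear. No scaling between arrays is named, although the summed miRNA signal was nearly the same on all arrays. If arrays were scaled to that sum before deposit, every 5S value is relative to it. The software behind the intensities is not given in the sources used here.

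Values under 1 were raised to 1 before log2 was taken. All 207 probes were fitted with limma 3.58.1 in R 4.3.3 with condition and sheep (as a block) as terms, p was adjusted by Benjamini-Hochberg over all 207 probes, and the moderated F test of the sheep terms was taken from the same fit. The scripts were tested on simulated data. The sheep pair the segments because both come from 1 animal. The correlation between the segments' deviations from their condition means, over all probes, was 0.25, 0.88, 0.48, -0.50 and 0.53 for sheep 2, 3, 6, 7 and 10. Confidence intervals are at 95% and come from the moderated fit. Correlations carry no p, since the arrays come from 5 animals. Precision is limited by how few arrays there are.

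The members and the lists were chosen with earlier results of these data known. Named miRNAs were the 5 highest and 5 lowest in r with the mean log2 5S signal among miRNAs whose log2 signal averaged at least 5, and the miRNAs of the PCR assays. Alternatives were other scalings, a floor or pseudocount of 32, a filter on dim probes, fewer probes, no block, side as covariate, the left segment taken as treated, an intensity trend, the methods' t-test in paired form and leaving out each sheep. Centring on the PUC2PM-20B or 5S probes and leaving out sheep 6 and 10 were added after seeing the data.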

Additional observations from a re-analysis of the deposited data

Results flagged for a closer look

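The fibrotic segment of sheep 6 stood apart from the other fibrotic segments in its summed 5S signal, which was 321% of the summed miRNA signal, against 36.7% to 115% in the other 4 sheep. The normal segment of sheep 6 was higher still, at 397%, and that of sheep 10 was at 222%, so the high value was not particular to the fibrotic segment. The fibrotic percentages were the only one of 40 groups of 5 values examined in which 1 sample was so far from the rest. The gap was 0.724 of the range, just above the limit of 0.71, and was taken on the linear scale. Chance alone gives about 1 such case in 20 groups, so 1 case among 40 groups is no more than chance would give.

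For hsa-5S-b6, the fibrotic segment was higher in both sheep in which it was the left one and lower in all 3 in which it was the right one. The mean log2 differences were 0.75 and -0.63, a gap of 1.38, and the left segment was therefore higher in all 5 sheep. With side as a covariate in limma, the side term of hsa-5S-b6 had an unadjusted p of 0.0482 and an adjusted p of 0.920. For bta-5S-b6 the left segment was higher in 4 of 5 sheep. No other 5S probe was higher on the left in all 5, and no share over all probes was counted. In every sheep the left segment had the odd-numbered array and the right one the array after it. Side and array order therefore cannot be told apart. If bleomycin was given on the left in every animal, as the methods state, side cannot be told apart from treatment either.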

How the results depend on the processing

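The count of 5S probes called between fibrotic and normal segments was 0 under each of the 21 alternatives run, and so was the count over all probes. Without the replicate block both counts were 0, so the block changed no call, and 11 of all probes had an unadjusted p under 0.05 against 21 with it. At an unadjusted p under 0.05, 2 of the 12 5S probes passed with the left segment as treated (5 of all 207 probes), 1 with control centring (30 of 207) and 1 without sheep 6 (27 of 207). Control centring moved the median log2 fold change of all probes to 0.29, with all 12 5S probes above 0, and miRNA median centring moved it to -0.22. The median of the 5S probes was 0.016 without sheep 2, 0.020 without sheep 7 and 0.32 without sheep 6, and the mean log2 ratio of the 5S sum lay between -0.11 and 0.30 with 1 sheep left out.

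The 5S probes called between sheep numbered 5 with miRNA median centring, 4 with log2(value + 32), 5 among the brighter probes, 3 with centring on the 5S probes (where 42.0% of all probes were called), and 0 to 6 with 1 sheep left out. The correlation with the miRNA sum was -0.91 after quantile normalization, -0.43 with control centring, and 0.19 to 0.75 with 1 sheep left out. The values under these scalings are at least partly built in.

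The log2 fold changes of 9 of the 12 5S probes changed sign under some setting, including that of bta-5S-b4, which was the farthest from 0. For hsa-5S-b1 this was to 5.2e-05 with division by the miRNA sum, 0.079 with quantile normalization, 0.35 with control centring, 0.00053 with log2(value + 32), 0.077 with side as covariate, 0.39 with the left segment as treated and 0.26 without sheep 6 and 10. For hsa-5S-b3 it was to -0.13 with miRNA median centring, -0.097 with quantile normalization, -0.053 with PUC2PM-20B centring and -0.082 with 5S centring. For bta-5S-b6 it was to 0.11 with quantile normalization, 0.23 with control centring, 0.60 with the left segment as treated and 0.40 without sheep 6 and 10. For hsa-5S-b6 it was to 0.21, 0.28, 0.68 and 0.46 under the same settings, and to 0.060 with side as covariate. For bta-5S-b4 it was to 0.011 with control centring and 0.39 with the left segment as treated, and for bta-5S-b3 to -0.0045 with the latter. With 1 sheep left out, the range was -0.024 to 0.42 for bta-5S-b2, -0.36 to 0.17 for bta-5S-b6, -0.29 to 0.20 for hsa-5S-b1, -0.043 to 0.41 for hsa-5S-b2, -0.18 to 0.29 for hsa-5S-b3, -0.0081 to 0.73 for hsa-5S-b4 and -0.38 to 0.22 for hsa-5S-b6. The causes were not tested. Where each array is divided by its miRNA sum, a correlation with that sum has no meaning and was not computed.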
